A study of Macaca fascicularis with 2 samples.

Results

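The chemokine CXCL12, its signalling receptor CXCR4 and its scavenging receptor ACKR3 were read as 3 rows, taken by symbol, of a count table of 18446 genes in 20967 cells of the fetal ovary of the cynomolgus monkey, Macaca fascicularis. Their levels are described across the stroma, the vessels, the granulosa and the steps of the germ cells. The cells came from 2 untreated female fetuses, 1 at embryonic day 84 (E84) and 1 at embryonic day 116 (E116), with both ovaries of a fetus pooled into 1 droplet library that counts the 3' ends of transcripts by unique molecular identifiers (UMIs). The table marks each barcode only by an ending, 1 (10621 cells) or 2 (10346 cells), and no label ties an ending to a stage. The cells therefore count as 1 sample here, with the endings described apart, and no value below is read as a difference between stages. Whether a difference between endings is one of stage, fetus or library cannot be told. With 1 fetus per stage no test could be made, and every interval is an exact 95% interval that covers counting error only.

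CXCL12, also known as stromal cell-derived factor 1, is a secreted chemokine that binds CXCR4, a receptor coupled to inhibitory G proteins, and ACKR3, an atypical receptor that recruits arrestins and removes the ligand from the surroundings. A source of CXCL12 beside cells with ACKR3 makes a gradient along which CXCR4-bearing cells move. In embryos the axis is known for guiding primordial germ cells to the gonad, for the patterning of arteries, and for holding leukocytes in tissues.

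Together the cells held 148824177 UMIs, with a median of 3130 per cell in ending 1 and 4555.5 in ending 2. Clustering without the members or the other genes of the pathway gave 20 clusters, of which one, of immune cells, was split further. Markers named 18497 cells: 4574 stroma-like, 137 pericyte-like, 547 endothelial-like, 4687 granulosa-like, 1258 ovarian surface epithelium-like, 6300 germ cell-like, 87 macrophage-like, 160 lymphocyte-like and 747 erythroid-like. The defining markers stood where the names put them, with 1799 UMIs of COL1A2 per 1000000 UMIs (CPM) in the stroma, 458 CPM of CDH5 in the endothelium, 1719 CPM of RGS5 in the pericytes and 291 CPM of DDX4 in the germ cells. The granulosa factor FOXL2 was sparse, at 3.99 CPM in granulosa-like cells, which also held AMHR2 at 196 CPM. The 2 endings shared 27 barcode sequences. CXCL12 was counted 14626 times in 5110 cells (24.4%), CXCR4 3146 times in 1452 cells (6.93%) and ACKR3 53 times in 51 cells (0.243%), so statements on ACKR3 rest on few molecules.

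**Figure D1:**
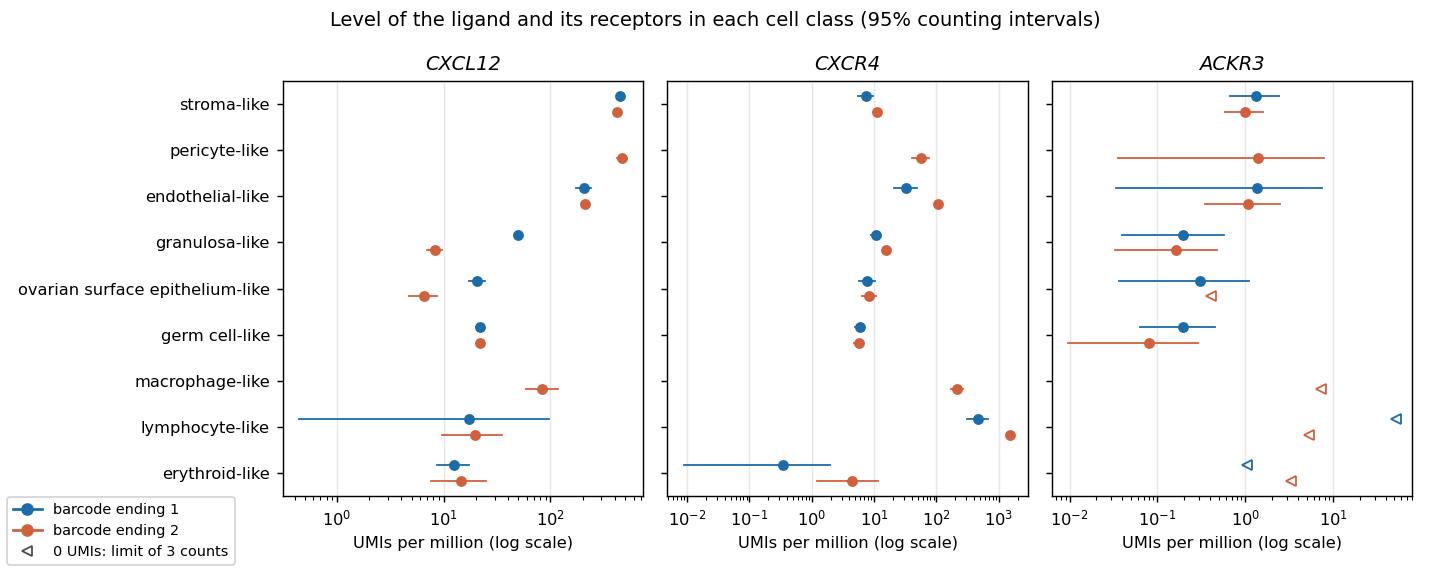
CPM of CXCL12, CXCR4 and ACKR3 in each cell class (log scales), with cells of barcode ending 1 and 2 drawn apart and groups under 20 cells left out. Points are summed UMIs of a group, bars exact 95% intervals for counting error, and open triangles the limit set by 3 counts where no UMI was found; CXCL12 was highest in stroma-like and pericyte-like cells, CXCR4 in lymphocyte-like cells, and ACKR3 lay near 1 CPM or lower wherever it was counted.

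The ligand CXCL12 was a transcript of the stroma and the vessel wall. Stroma-like cells held 449 CPM (434 to 463) in ending 1 and 417 CPM (408 to 427) in ending 2, and 65.0% and 71.5% of them had at least 1 UMI. Pericyte-like cells, mural cells of vessels with ACTA2, RERGL and TAGLN among their leading genes, were not split into pericytes and smooth muscle. They held 467 CPM (418 to 520) in ending 2, and the 10 such cells of ending 1 held 2 UMIs. Stroma-like cells were 21.8% of all cells and held 73.3% of all CXCL12 UMIs. Over all other named cells their level was higher by 3.63 on the log2 scale (3.58 to 3.68), or 12.4-fold, and the value was 3.80 within ending 1 and 3.51 within ending 2. On the log2 scale with 10 CPM added, CXCL12 passed a fold of 1, as did 3.02% of the 16314 genes with at least 20 UMIs.

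The levels of CXCL12 fell into an order in which some neighbours could not be separated. The interval of pericyte-like cells (457 CPM, 409 to 508) overlapped that of stroma-like cells (427 CPM, 419 to 436). Endothelial-like cells followed with 211 CPM (199 to 223), then macrophage-like cells with 80.1 CPM (56.4 to 110.4), and then granulosa-like cells with 27.0 CPM (25.3 to 28.8). A single cell held 21 of the 37 macrophage UMIs, and without it the macrophage level was 36.8 CPM (21.0 to 59.8), which overlapped the granulosa one. Germ cell-like cells held 22.0 CPM (20.7 to 23.3), lymphocyte-like cells 19.2 (9.94 to 33.6), ovarian surface epithelium-like cells 13.1 (11.3 to 15.2) and erythroid-like cells 12.9 (9.56 to 17.1), each overlapping the next. Erythroid-like cells, red cell precursors in which CXCL12 has no known role, were taken as a reference level. Of them 4.95% had a UMI, at a median of 4066 UMIs per cell. In those of ending 1 there were 1.72 CXCL12 UMIs (1.20 to 2.39) per 100 UMIs of the 10 stroma markers, beside 1.65 (1.59 to 1.70) in the stroma-like cells of the same ending. Levels at or below the erythroid one are, by choice, not read as expression here. Whether the erythroid UMIs are background, and whether the same CPM would hold for cells of another depth, was not tested. On the log2 scale with 10 CPM added, CXCL12 passed the fold of 1 upward in pericyte-like cells against all other named cells (3.63% of genes), and downward in granulosa-like (4.43%), ovarian surface epithelium-like (3.59%), germ cell-like (6.70%), lymphocyte-like (10.9%) and erythroid-like cells (50.0%). After thinning to 1000 UMIs per cell, 34.4% of stroma-like cells, 29.2% of pericyte-like cells, 13.8% of endothelial-like cells and 1.23% of erythroid-like cells had a CXCL12 UMI.

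Within the stroma CXCL12 was spread over nearly all kinds of cell. The 2 large stroma-like clusters, one of ending 2 led by C7, SPON2 and WFDC1 and one of ending 1 led by POSTN, LUM and OGN, held 437 CPM (426 to 447) and 458 CPM (443 to 473). Clustering the stroma-like cells alone gave 13 sub-clusters. The highest, 176 cells led by the interferon-induced chemokines CXCL11 and CXCL10 and by MGP and PI16 and with 3 pericyte markers raised, held 662 CPM (613 to 714). A cycling sub-cluster led by MKI67 and TOP2A held 256 CPM (235 to 279). The lowest, 20 cells led by CYP17A1, HSD3B2 and INSL3, genes of steroid-producing cells, held 77.2 CPM (51.7 to 110.8) and had a UMI in 25.0% of its cells at a median of 15911.5 UMIs per cell. The 104 cells of the next, at 193 CPM (167 to 222), carried 7 granulosa markers beside the stroma ones.

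Endothelial-like cells held CXCL12 at 205 CPM (174 to 240) in ending 1 and at 211 CPM (198 to 225) in ending 2, values that rest on different cells. Clustering these cells alone found 4 sub-clusters with 3 or more raised markers of another class. Without those 4, a choice made after seeing the data, ending 1 held 57.0 CPM (35.7 to 86.3) and ending 2 held 181 CPM (163 to 201). Of all 547 endothelial-like cells, mixed ones included, 32.9% had a UMI. Those cells held 6.33 UMIs each, beside 3.41 in the stroma-like cells with a UMI. The transcript was thus concentrated in some of the cells. In the sub-cluster with pericyte markers, with a median of 23530 UMIs per cell, the cells with a UMI held 8.49 each. Depths differed, with a median of 5787 UMIs in endothelial-like cells and of 4384.5 and 2876 in the 2 large stroma-like clusters. Over all other named cells, stroma included, the endothelial level was higher by 1.03 (0.94 to 1.12) on the log2 scale, yet it was -0.025 (-0.23 to 0.17) among cells with 200 to 3000 genes clustered anew, the limits in the study's methods, and its direction is therefore not settled. Without the 4 mixed sub-clusters it was 0.65 (0.50 to 0.79). CXCL12 did not keep the ratio to other stroma transcripts seen in the stroma: endothelial-like cells of ending 2 held 10.8 CXCL12 UMIs (10.1 to 11.5) per 100 UMIs of the stroma list, beside 2.06 (2.01 to 2.11) in stroma-like and 9.32 (8.31 to 10.4) in pericyte-like cells of that ending. Of the 987 CXCL12 UMIs behind it 544 lay in the sub-cluster with pericyte markers, and without that sub-cluster the ratio was 11.6 (10.5 to 12.8).

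There were 8 endothelial-like sub-clusters in all, and CXCL12 and CXCR4 were high together in some and low together in others, though not in all. A sub-cluster of 148 cells, led by the elastic fibre genes FBLN2 and FBLN5 and by SEMA3G and GPIHBP1, held CXCL12 at 317 CPM (281 to 355) and CXCR4 at 175 CPM (149 to 204). Of the 4 arterial genes in the table, SOX17, HEY1, EFNB2 and DLL4, it had 2 raised by 1.5-fold over the other endothelial-like cells with 10 CPM added, SOX17 (265 against 172 CPM) and HEY1 (104 against 61.6 CPM). The mixed sub-cluster with pericyte markers had 3 raised, HEY1 (128 against 40.8 CPM), EFNB2 and DLL4. Genes of a list for tip cells, the cells at the front of sprouts, were raised too, 1 in the FBLN2 sub-cluster and 3 in the mixed one. A sub-cluster of 75 cells led by HBB and by PLVAP, a gene of fenestrated capillaries, held CXCL12 at 25.7 CPM (10.4 to 53.0) and CXCR4 at 22.1 CPM (8.10 to 48.0). A sub-cluster of 65 cells with the adhesion genes SELE and ICAM1 held 35.1 CPM (24.0 to 49.5) of CXCL12 and 5.48 CPM (1.78 to 12.8) of CXCR4. The lowest values were those of 42 cells led by MMRN1, CCL21 and PDPN, genes of lymphatic endothelium, with 5 CXCL12 UMIs and 1 CXCR4 UMI in all, although the cells had a median of 8993.5 UMIs.

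**Figure D2:**
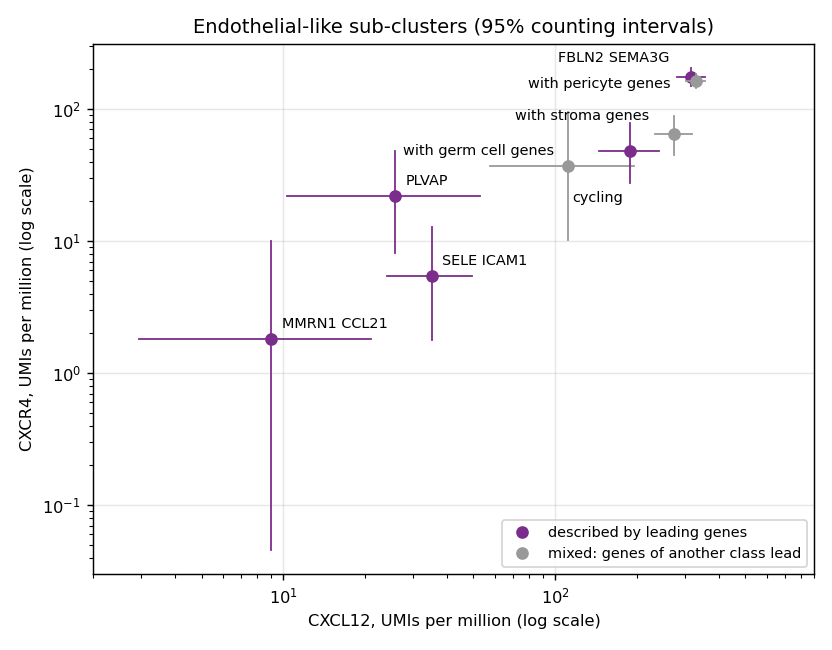
CXCL12 against CXCR4 in the 8 endothelial-like sub-clusters, both in CPM on log scales, with exact 95% intervals for counting error. Purple points are sub-clusters described by their leading genes, grey points mixed ones in which genes of another class lead; the FBLN2 and SEMA3G sub-cluster lay at 317 and 175 CPM, the MMRN1 and CCL21 sub-cluster at 9.03 and 1.81 CPM.

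Against the PLVAP, SELE, MMRN1 and cycling sub-clusters as 1 group, the FBLN2 sub-cluster was higher by 2.62 (2.29 to 2.95) for CXCL12 and by 3.69 (3.11 to 4.33) for CXCR4 on the log2 scale. That group leaves out 3 mixed sub-clusters but keeps the MMRN1 one, in which macrophage markers were raised, and without the latter the differences were 2.24 (1.91 to 2.58) and 3.30 (2.70 to 3.94). Against all other endothelial-like cells they were smaller, at 0.75 (0.55 to 0.94) and 1.16 (0.88 to 1.43), since the mixed sub-clusters with pericyte and with stroma markers were rich in CXCL12 too. Over the first group both passed the fold of 1, as 1.12% of the 9031 genes with enough UMIs did, and 2.37% passed it downward. In the cycling sub-cluster 57 of its 63 CXCL12 UMIs lay in 2 cells. The FBLN2 sub-cluster held both genes in both endings, with CXCL12 at 191 CPM (109 to 310.5) in its 18 cells of ending 1 and 329 CPM (292 to 370.3) in its 130 cells of ending 2, and CXCR4 at 108 CPM (49.2 to 204) and 182 CPM (154 to 213). Ligand and receptor were met in the same cells: 60.5% of its cells with a CXCR4 UMI also had CXCL12, against 16.2% of those without, at median depths of 5864 and 4719 UMIs. The 14 cells with at least 5 CXCL12 UMIs held 81.2% of the CXCL12 of the sub-cluster. In these 14 cells HEY1 stood at 348 CPM and DLL4 at 299 CPM, and in the other 134 at 59.9 and 125 CPM, and CXCR4 at 370 and 140 CPM. ESM1, on the tip cell list, stood at 505 and 302 CPM. NR2F2, a venous regulator, went the other way, at 178 and 240 CPM. Split at the same count, the mixed sub-cluster with pericyte markers held HEY1 at 159 and 96.5 CPM and DLL4 at 220 and 177 CPM. There CXCR4 was lower in the cells with more CXCL12, at 148 and 180 CPM, and NR2F2 was alike, at 480 and 474 CPM. In the mixed sub-cluster with stroma markers HEY1, DLL4 and CXCR4 (79.4 and 48.8 CPM) were higher, and so was NR2F2, at 763 and 359 CPM. All these cells were chosen by their CXCL12 count, so that the figures describe them and test nothing.

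In 4 of the 8 sub-clusters 3 or more markers of another class were raised. One of 74 cells with 8 pericyte markers and a median of 23530 UMIs per cell held CXCL12 at 329 CPM and CXCR4 at 164 CPM and supplied 569 of the 1139 endothelial CXCL12 UMIs and 283 of the 514 CXCR4 UMIs. Another of 32 cells with 9 stroma markers held CXCL12 at 274 CPM, but CXCR4 at 64.2 CPM, under the 95.0 CPM of all endothelial-like cells. A group of 82 cells carried meiotic genes, and the MMRN1 sub-cluster had 5 macrophage markers raised. Whether droplets with more than 1 cell enter these was not tested.

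CXCR4, the signalling receptor, was highest in the lymphocyte-like cells, with 469 CPM (309 to 682) in the 21 cells of ending 1 and 1489.6 CPM (1390.7 to 1594) in the 139 cells of ending 2. They were 0.763% of all cells and held 27.7% of all CXCR4 UMIs. Over all other named cells they were higher by 6.73 (6.61 to 6.85) on the log2 scale, and CXCR4 passed the fold of 1 as 4.52% of genes did. The sub-cluster led by GZMB, CCL5 and CD3D, genes of cytotoxic lymphocytes, held 2699 CPM, with a UMI in 87.9% of its 66 cells. In the 2 sub-clusters led by JCHAIN and MZB1, genes of antibody-secreting cells, CXCR4 stood at 1074.7 CPM (68 cells) and 563 CPM (26 cells). Thinned to 1000 UMIs, 62.4% of lymphocyte-like cells and 0 of 653 erythroid-like cells had a UMI, the latter with an upper bound of 0.563%.

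Macrophage-like cells came second, at 203 CPM (164 to 249). Of the 2 sub-clusters, the one led by C1QA and GPNMB held 230.5 CPM (186 to 283) in 44 cells, and the one led by S100A8 and S100A9 held 2 UMIs in 43 cells, at a median of 908 UMIs per cell. Endothelial-like cells came next at 95.0 CPM (87.0 to 103.6), then pericyte-like cells at 55.7 (40.0 to 75.6) and granulosa-like cells at 13.3 (12.1 to 14.5). Stroma-like cells at 10.0 (8.80 to 11.3) overlapped ovarian surface epithelium-like cells at 8.07 (6.65 to 9.70). Germ cell-like cells held 5.82 (5.18 to 6.52) and erythroid-like cells 1.32 (0.428 to 3.08).

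In the vessels CXCR4 stood at 32.4 CPM (20.8 to 48.2) in ending 1 and 105 CPM (95.9 to 115) in ending 2, and 12.2% and 27.8% of endothelial-like cells had a UMI. Between the endings CXCR4 differed by 1.70 (1.11 to 2.35) and passed the fold of 1, as 2.79% of 10189 genes did upward and 1.74% downward, while CXCL12 differed by 0.04 (-0.20 to 0.30). The endings filled different sub-clusters: ending 2 held 130 of the 148 FBLN2 cells and 73 of the 74 cells with pericyte markers, and ending 1 held 70 of the 75 PLVAP cells, so that sub-cluster and ending cannot be told apart. Within the FBLN2 sub-cluster CXCR4 differed by 0.76 (-0.20 to 1.91) and CXCL12 by 0.78 (0.06 to 1.61). Without the mixed sub-clusters CXCR4 differed by 1.47 (0.63 to 2.45) and CXCL12 by 1.67 (1.05 to 2.36), so that both were higher in ending 2. The CXCR4 level of all endothelial-like cells was higher than in all other named cells by 2.54 (2.40 to 2.68) on the log2 scale. The difference was 2.06 within ending 1 and 2.16 within ending 2, and CXCR4 passed the fold of 1 as 5.12% of genes did. It was 1.31 (0.96 to 1.63) among cells with 200 to 3000 genes clustered anew and 1.70 (1.21 to 2.16) after thinning. Lymphocyte markers summed to 60.6 CPM in endothelial-like cells of ending 2 and to 2981 CPM in the lymphocyte-like cells, and CD3E was at 0 in the former. There were 173 CXCR4 UMIs per 100 UMIs of that list in endothelial-like cells, beside 50.0 in lymphocyte-like cells of the same ending.

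The granulosa-like cells, the somatic partners of the germ cells, held little of either gene, with a contrast between their clusters. CXCL12 stood at 48.4 CPM (44.9 to 52.1) in the 2165 cells led by SOST, CRYM and TOX3, nearly all of ending 1, where 22.5% had a UMI. It was at 15.6 CPM (12.5 to 19.3) in the 554 cells led by INHA and AMH and at 5.94 CPM (4.70 to 7.41) in the 1084 cells led by RGS4 and WIF1, nearly all of ending 2. Over the class as a whole CXCL12 was at 49.5 CPM (46.1 to 53.1) in ending 1 and at 8.28 CPM (7.03 to 9.70) in ending 2, lower by 2.58 (-2.84 to -2.33 as a log2 difference of ending 2 from ending 1). Its fold passed 1, as 1.48% of 13545 genes did in that direction and 1.11% in the other. In stroma-like cells the same difference was -0.10 (-0.16 to -0.05), and neither CXCL12 nor CXCR4 passed the fold there, with 1.06% of 12803 genes past it upward and 1.20% downward. Clusters and endings cannot be told apart in the granulosa outside the INHA and AMH cluster. That cluster had 106 cells of ending 1 and 448 of ending 2, and its endings were not compared. In the class as a whole stroma markers did not fall to the same extent, at 3469 CPM in ending 1 and 2202 CPM in ending 2. CXCL12 per 100 UMIs of that list was 1.43 (1.33 to 1.53) and 0.38 (0.32 to 0.44), with the former near the ratio of the stroma-like cells. The part of free RNA in the ending 1 value was not tested.

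CXCR4 in granulosa-like cells went from 10.5 CPM (8.97 to 12.3) in ending 1 to 15.5 CPM (13.8 to 17.4) in ending 2, and reached 19.6 CPM (16.1 to 23.7) in the INHA and AMH cluster. A cluster of 816 cells of ending 2 stood out. It was led by CBLN2, LYPD1, CTSD and COL4A3, and 4 pericyte markers against 3 granulosa markers left it unnamed. It held CXCR4 at 48.8 CPM (44.5 to 53.4), with a UMI in 31.2% of its cells, and was higher than the granulosa-like cells by 1.88 (1.69 to 2.07) on the log2 scale. CXCR4 passed the fold of 1 there, as 1.71% of 13899 genes did upward, and CXCL12 passed it downward, as also 1.71% did. This cluster alone held 476 of the 3146 CXCR4 UMIs, nearly as many as all endothelial-like cells. Lymphocyte markers summed to 1.74 CPM in it, endothelial markers to 22.9 CPM and macrophage markers to 17.2 CPM, against 1.18, 39.4 and 17.4 CPM in the granulosa-like cells of the same ending. The pericyte list, of which 4 markers were raised in the cluster, is not among these sums. Pericyte-like cells held CXCR4 at 55.7 CPM (40.0 to 75.6), and whether such cells enter the cluster was not tested. In this cluster CXCL12 was at 6.98 CPM (5.42 to 8.84), below the erythroid level.

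**Figure D3:**
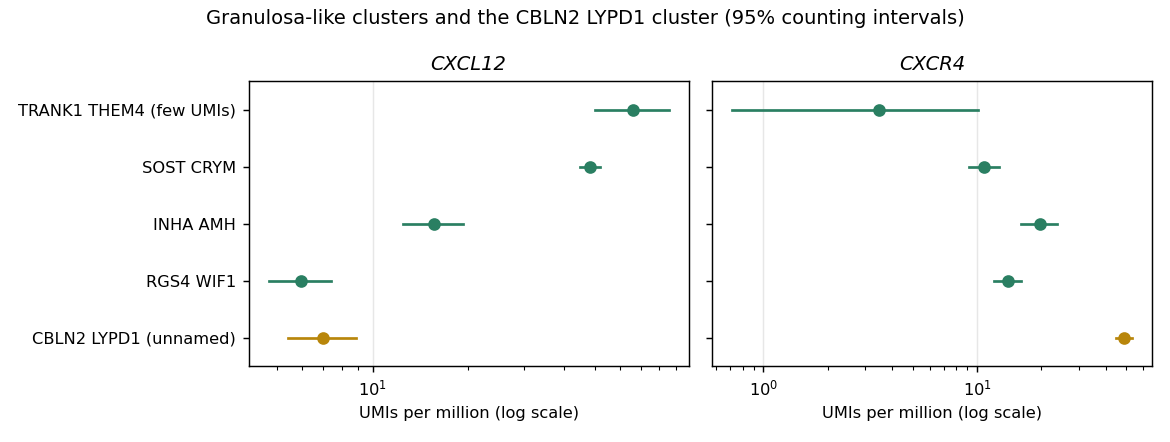
CPM (log scales) of CXCL12 and CXCR4 in the 4 granulosa-like clusters (green) and in the unnamed CBLN2 and LYPD1 cluster (gold), each named by leading genes, with exact 95% intervals for counting error. CXCL12 was above 40 CPM in the clusters of ending 1 (TRANK1 and SOST) and below 20 in the others, and CXCR4 was highest, at 48.8 CPM, in the CBLN2 and LYPD1 cluster.

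In the germ cells CXCR4, the receptor by which primordial germ cells are guided, was low. Germ cell-like cells held 5.92 CPM (5.02 to 6.93) in ending 1 and 5.72 CPM (4.83 to 6.74) in ending 2. The level was lower than in all other named cells by 2.25 on the log2 scale (-2.43 to -2.08), with -0.72 within ending 1 and -2.81 within ending 2, where 139 of the 160 lymphocyte-like cells lie. In the direction of lower levels CXCR4 passed the fold of 1, as 6.70% of genes did. Sub-clustering named 3711 of the 6300 germ cells by step: 251 mitotic-like (NANOG at 212 CPM), 1465 RA-responsive-like (responding to retinoic acid, ZGLP1 at 166 CPM), 1314 meiotic-like (SYCE3 at 1722 CPM) and 681 oogenesis-like (GDF9 at 374 CPM).

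Over both endings CXCR4 was highest at the first step and lowest at the last, but the first step came almost wholly from ending 1. Mitotic-like cells, of which 248 of 251 had ending 1, held 10.3 CPM (7.19 to 14.4) from 35 UMIs, and 11.6% of them had a UMI. RA-responsive-like cells held 6.39 CPM (5.13 to 7.88), meiotic-like cells 2.27 (1.37 to 3.55) and oogenesis-like cells 1.65 (0.977 to 2.61). The intervals of the first pair overlapped, as did those of the last pair, and the last pair overlapped the erythroid level of 1.32 CPM. The mitotic-like level was higher than the RA-responsive-like one by 0.69 (0.08 to 1.27) on the log2 scale over all cells and by 1.13 (0.44 to 1.80) within ending 1, where the steps stood at 10.5, 4.80 (3.47 to 6.47) and 1.08 CPM (0.349 to 2.51) from mitotic-like to meiotic-like. In ending 2 RA-responsive-like cells held 9.36 CPM (6.83 to 12.5), an interval that overlapped that of the mitotic-like cells of ending 1, and meiotic-like and oogenesis-like cells held 3.77 (2.06 to 6.32) and 1.59 CPM (0.925 to 2.54). Neither CXCR4 nor CXCL12 passed the fold of 1 in any step against the other steps, with 10 CPM added. Of 14092 genes 3.95%, 2.19%, 5.43% and 6.01% did so upward from mitotic-like to oogenesis-like, and 9.64%, 4.02%, 4.83% and 7.23% downward. After thinning, CXCR4 UMIs were left in 4 mitotic-like and 7 RA-responsive-like cells, and the ratio of 1.71 had an interval from -0.51 to 3.68.

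CXCL12 had another course across the same steps. In ending 1 it was at 9.88 CPM (6.80 to 13.9) in mitotic-like cells, 18.8 (16.0 to 21.8) in RA-responsive-like cells and 16.4 (12.9 to 20.5) in meiotic-like cells, beside 12.5 (8.73 to 17.3) in erythroid-like cells. In ending 2 it was at 34.9 CPM (29.9 to 40.6) in RA-responsive-like cells, 35.5 (29.7 to 42.1) in meiotic-like cells and 8.13 (6.51 to 10.0) in oogenesis-like cells, beside 14.4 (7.68 to 24.7) in erythroid-like cells. RA-responsive-like and meiotic-like cells of ending 2 thus stood clear of the erythroid level, and oogenesis-like cells did not. Within ending 2 the RA-responsive-like level was higher than the oogenesis-like one by 2.10 (1.72 to 2.49) on the log2 scale, past the fold of 1 as 8.96% of 12305 genes were upward and 7.61% downward. Among sub-clusters of like depth, 43.3% of 215 RA-responsive-like cells (median 17347 UMIs) and 16.4% of 299 oogenesis-like cells (median 19416 UMIs) had a UMI.

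The CXCL12 of these germ cells did not keep the ratio it had to other stroma transcripts in stroma-like cells. In ending 2 there were 17.6 CXCL12 UMIs (14.8 to 20.7) per 100 UMIs of the stroma list in RA-responsive-like cells and 22.0 (18.1 to 26.6) in meiotic-like cells, against 4.76 (3.80 to 5.91) in oogenesis-like cells and 2.06 in stroma-like cells. The stroma list itself summed to 199, 161 and 171 CPM in the 3 steps. In ending 1 the ratios were lower, at 3.30 (2.26 to 4.66), 5.10 (4.34 to 5.96) and 2.84 (2.23 to 3.57) from mitotic-like to meiotic-like, with stroma-like cells at 1.65. In ending 2 the ratio was above the stroma-like one also in oogenesis-like cells, whose CXCL12 level is by choice not read as expression. A higher ratio is therefore not read as expression by itself. Whether doublets, with stroma or with any other cell, or free RNA enter these values was not tested.

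**Figure D4:**
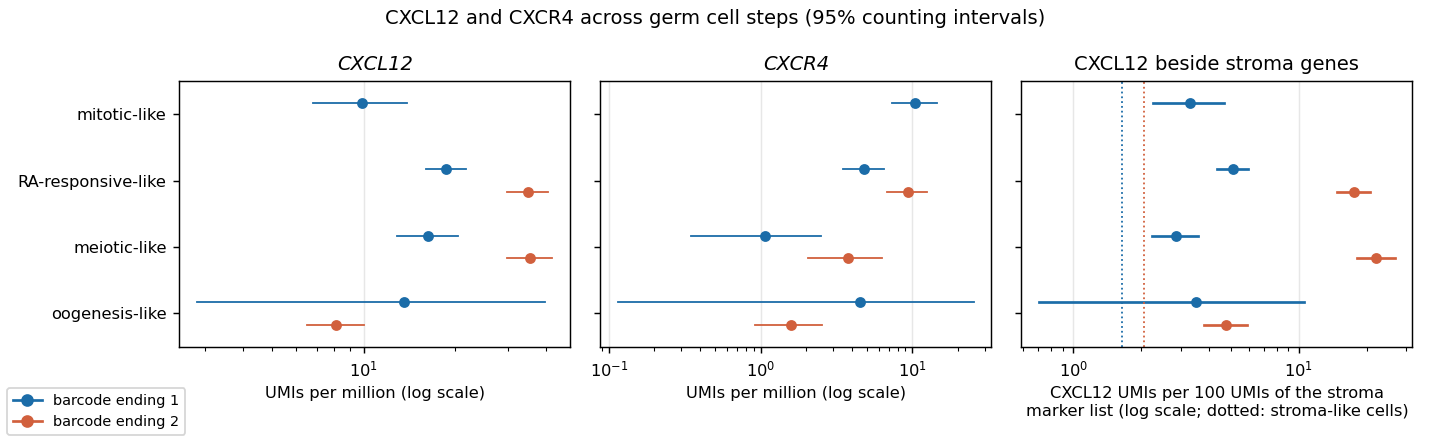
CXCL12 and CXCR4 in CPM and CXCL12 UMIs per 100 UMIs of the stroma marker list (all log scales) in the 4 named germ cell steps, by barcode ending, with exact 95% intervals for counting error; dotted lines mark the ratio in stroma-like cells and groups under 20 cells are left out. CXCL12 was near 35 CPM in RA-responsive-like and meiotic-like cells of ending 2 and 8.13 CPM in oogenesis-like cells, and CXCR4 went from 10.5 CPM in mitotic-like cells to 1.08 CPM in meiotic-like cells of ending 1.

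The germ cells that no step claimed bear on these values. A sub-cluster of 473 cells with a median of 21231 UMIs, led by the somatic genes PTGDS, SOST, KITLG and RGS5, held CXCL12 at 29.2 CPM (26.2 to 32.4) and CXCR4 at 10.5 CPM (8.73 to 12.5). Over all 2589 unnamed germ cells DCN stood at 455 CPM, against 50.9 to 93.4 CPM in the named steps. Their 137 CXCR4 UMIs were 46.1% of the 297 in all germ cell-like cells.

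ACKR3, the scavenging receptor, was near the limit of detection in every class. Of its 53 UMIs, 28 were in stroma-like cells (1.12 CPM, 0.742 to 1.61), 6 in endothelial-like cells (1.11 CPM, 0.407 to 2.41), 6 in granulosa-like cells (0.176 CPM, 0.0646 to 0.383), 7 in germ cell-like cells (0.137 CPM, 0.0552 to 0.283), 2 in ovarian surface epithelium-like cells and 1 in pericyte-like cells. The level in stroma-like cells was 1.34 CPM (0.670 to 2.40) in ending 1 and 1.01 CPM (0.586 to 1.61) in ending 2. It was higher than in all other named cells by 2.48 (1.62 to 3.36) on the log2 scale, and lower in granulosa-like cells than in the rest by 1.31 (-2.83 to -0.07). The fold of 1 with 10 CPM added could not be reached at such levels, so that no call could be made for ACKR3. No UMI was counted in macrophage-like, lymphocyte-like or erythroid-like cells, where 3 counts would be 6.49, 4.81 and 0.792 CPM, so that a level like that of the stroma was not detectable in the first 2 of these classes. Of the 7 UMIs in germ cells 4 were in the 251 mitotic-like cells (1.18 CPM, 0.321 to 3.02).

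Of the 4574 stroma-like cells 27 (0.590%) had a UMI of ACKR3. The 3143 of them with a CXCL12 UMI held 23 of the 53 ACKR3 UMIs, in 22 cells. CXCL12 and CXCR4 were met together in 163 stroma-like cells: 76.9% of the cells with CXCR4 and 68.3% of those without had CXCL12, at median depths of 6848 and 3624 UMIs. In endothelial-like cells the shares were 71.3% and 21.1%, at 12863 and 4774 UMIs, and the depths differ enough that the shares are given as a description.

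The other genes of the pathway, 57 of a fixed list of 61 being in the table, were most often past the fold upward in vessels and leukocytes. In endothelial-like cells 12 of 55 listed genes tested were past the fold of 1 upward, against 5.12% of all genes, and none was past it downward, against 4.74%. The median of the list was 0.33 on the log2 scale and that of all genes -0.07. Macrophage-like cells had 15 listed genes higher (6.19% of all genes) and 4 lower (12.3%), lymphocyte-like cells 14 higher (4.52%) and 7 lower (10.9%). RAC2, DOCK2, PIK3CG, RGS1 and CD74 were among those higher in both classes. Such counts depend on which genes the list holds, and it was chosen with earlier results known. They are no measure of the activity of the pathway. Germ cell-like cells had 2 higher (8.88%), PIK3CB and PTK2, and 10 lower (6.70%). In stroma-like cells 3 were higher (3.02%), MMP2, MMP14 and CXCL10, and 3 were lower (5.06%). Granulosa-like cells had 2 higher (2.26%), ACKR4 and VEGFA, and 4 lower (4.43%). Pericyte-like cells had 3 higher (3.63%), RGS16, EPAS1 and FOXC1, and none lower (4.10%), and ovarian surface epithelium-like cells 2 higher (2.11%), MIF and CXCL10, and 2 lower (3.59%). In erythroid-like cells ACKR1 alone was higher (0.306%) and 29 were lower (50.0%).

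By role, the proteases that cut CXCL12 included the gelatinases MMP2, with 445 CPM in the stroma and 208 CPM in the endothelium, and MMP9, with 158 CPM in macrophage-like and 12.8 CPM in lymphocyte-like cells. Of the other ligands, MIF, a cytokine that also binds CXCR4, was at 1054 CPM in ovarian surface epithelium-like cells and 689 CPM in granulosa-like cells. In the germ cells HMGB1, a chromatin protein that can bind CXCL12 once released, stood at 2094 CPM. ACKR1, the atypical receptor of red cells and venules, was at 11.3 CPM in erythroid-like and in endothelial-like cells, and ACKR4, a scavenger of other chemokines, at 14.3 CPM in granulosa-like cells. CXCR3 and CXCR6, receptors of effector lymphocytes, were at 127 and 25.7 CPM in lymphocyte-like cells and at or below 6.5 CPM in all other classes.

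Among the other chemokines of the family, CXCL8, which draws neutrophils, reached 435 CPM in the macrophages and 95.8 CPM in the endothelium, and CXCL10, a ligand of CXCR3, was at 238 CPM in macrophage-like, 205 CPM in ovarian surface epithelium-like and 191 CPM in endothelial-like cells. Downstream, the inhibitory G protein GNAI2 reached 684 CPM in the macrophages, 593 CPM in the endothelium and 105 CPM in the germ cells, and the small GTPase RAC1 was at 689 CPM in endothelial-like cells. RGS1, which limits G protein signals of chemokine receptors, was at 1247 CPM in macrophage-like and 646 CPM in lymphocyte-like cells and under 1 CPM in stroma-like, endothelial-like, granulosa-like and germ cell-like cells. CD74, a partner of CXCR4 in the response to MIF, reached 2647 CPM in the macrophages and 352 CPM in the endothelium. HIF1A and EPAS1, the oxygen-sensing regulators that can raise CXCR4, were at 170 CPM in granulosa-like and at 230.0 CPM in endothelial-like cells.

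**Figure D5:**
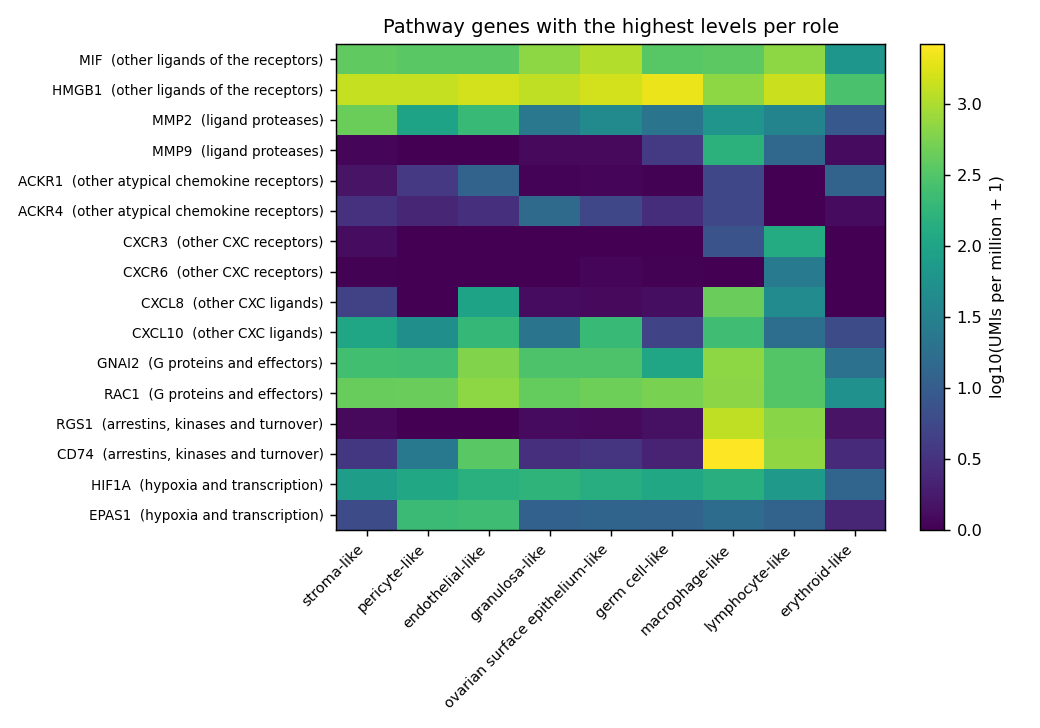
Level of the 16 pathway genes named by rule (up to 2 per role, those with the highest level in any class) in the 9 cell classes, as log10 of CPM with 1 added. MMP2 was highest in stroma-like cells, EPAS1 in endothelial-like cells, and MMP9, CXCL8, RGS1 and CD74 in macrophage-like cells, with CXCR3 and CXCR6 in lymphocyte-like cells.

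The genes whose levels ran most like each member over 24 groups of cells (19 clusters and 5 immune sub-clusters, on the log2 scale of CPM with 10 added, among 14176 genes) are given as a description, since groups share libraries and depth. For CXCL12 they were RFTN2 (Pearson's r of 0.91), DLK1 (0.91), TBX2 (0.90), NES (0.89) and OGN (0.89), of which DLK1 and OGN are on the stroma list. DLK1, a Notch-related surface protein, reached 873 CPM in pericyte-like cells, and OGN, a small matrix proteoglycan, 1091 CPM in the POSTN and LUM stroma cluster. For CXCR4 they were GIMAP7 (0.95), CASP12 (0.95), CD69 (0.95), TGFB1 (0.94) and APOBR (0.94), all highest in the GZMB and CCL5 lymphocyte sub-cluster. For ACKR3 they were ADAMTS4 (0.90), AGTR1 (0.89), KANK2 (0.88), RBMS3 (0.87) and NES (0.87), all highest in pericyte-like cells, and these rest on the 53 UMIs of ACKR3.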

How the data were processed

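Droplet libraries of ovaries of 2 fetuses were aligned by the authors to Macaca_fascicularis_5.0 with Cell Ranger 3.0.2, and the deposited table holds raw UMI counts per gene and barcode. The limit of 200 to 3000 genes per cell in the study's methods had not been applied to it: 4675 cells held more than 3000 genes. Members and gene lists were chosen with earlier results of these data known.

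Counts were clustered with Seurat 5.3.0 (2000 variable genes less the members and pathway genes, 18 components, 20 neighbours, resolution 0.6). A cluster was named "X-like" where at least 3 fixed markers were 1.5-fold up with a UMI in 5% of its cells and led the next class by more than 1. Details of this rule, including a list per germ cell step, were set after the clusters were seen. Unnamed were 2470 cells, among them 1654 with a median of 50.6% mitochondrial UMIs. Scrublet (scanpy 1.11.5) called 0 doublets in either ending and so had not worked. No doublet was removed, except that the 8% highest scores were left out as an alternative.

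CPM is summed UMIs of a gene per 1000000 UMIs of a group, with exact Poisson, binomial or, for ratios, conditional binomial intervals (scipy 1.17.1). The limit of a count of 0 is 3 counts. Calls use log2((CPM + 10)/(CPM + 10)) of at least 1 either way over genes with 20 UMIs, and have no test. Named were the members, at most 2 pathway genes per role with the highest CPM, and the 5 genes closest to each member. Intervals held their level on counts simulated with Poisson error alone, which cannot show how they fare with spread between cells. In that simulation 1 of 200 genes changed 2-fold passed the fold used for calls, and 141 of 200 genes changed 4-fold did. Alternatives were other cell limits, resolution 1.0, member genes kept for clustering, thinning to 1000 UMIs and each ending alone. Gene positions and sequences were not used here.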

Additional observations from a re-analysis of the deposited data

How the results depend on the processing

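Directions kept in 66 of 67 recomputations of 9 log2 ratios, and 38 stayed inside the interval of the value reported. The ratios for lymphocyte-like CXCR4, endothelial-like CXCL12 and RA-responsive-like over oogenesis-like CXCL12 were added after seeing the data. With only cells of 200 to 3000 genes clustered anew, CXCL12 of stroma-like cells gave 3.75, CXCR4 of endothelial-like cells 1.31, of germ cell-like cells -3.03 and of lymphocyte-like cells 7.60, CXCL12 of RA-responsive-like over oogenesis-like cells 1.57, and CXCL12 of endothelial-like cells reversed to -0.025. With at most 10% mitochondrial UMIs these were 3.08 for CXCL12 of stroma-like cells, 2.15 for CXCR4 of endothelial-like cells, 6.54 for CXCR4 of lymphocyte-like cells, 0.26 for CXCL12 of endothelial-like cells and 1.52 for ACKR3 of stroma-like cells. Without the highest Scrublet scores, CXCL12 of stroma-like cells gave 3.75 and CXCR4 of lymphocyte-like cells 6.94. Thinning gave 3.69 for CXCL12 of stroma-like, 0.35 of endothelial-like and 2.72 of RA-responsive-like over oogenesis-like cells. For CXCR4 it gave 1.70 in endothelial-like, -2.90 in germ cell-like, 7.45 in lymphocyte-like and 1.71 in mitotic-like over RA-responsive-like cells, and for ACKR3 3.71 in stroma-like cells, from 5 UMIs against 1. Ending 1 alone gave 3.80 for CXCL12 of stroma-like cells and 2.06 and -0.72 for CXCR4 of endothelial-like and germ cell-like cells, and ending 2 alone 3.51, 2.16 and -2.81. Without the endothelial-like sub-clusters that carry markers of another class, CXCR4 of endothelial-like cells gave 2.24 and CXCL12 0.65, an alternative also chosen after seeing the data. The causes were not tested. Resolution 1.0 and clustering with the member genes left all 9 ratios inside their intervals, as did every alternative for ACKR3 of granulosa-like cells. With no minimum of UMIs, 33 of 38 shares of genes past the fold were within 1.5 times their value. Ending 2 alone gave no mitotic-like ratio, as it held 3 such cells. No paired analysis was possible because each stage has 1 library and no result comes from a test.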

Other observations

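In the germ cells other genes of the pathway differed between the steps. DPP4, a peptidase that inactivates CXCL12, stood at 68.4 CPM at the mitotic-like step and then at 1.23, 6.46 and 0.27 CPM at the RA-responsive-like, the meiotic-like and the oogenesis-like step. CXCL14 stood at 13.6 CPM at the first step and under 1 CPM in the later steps. ARRB1, an arrestin, stood at 48.6 and 80.9 CPM at the first steps and at 5.38 and 5.49 CPM at the later ones. RGS16, a regulator of G protein signals, reached 40.5 CPM at the oogenesis-like step and stayed under 4 CPM in the other named steps. These genes were chosen after their values were seen.

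In the vessels the chemokines split the sub-clusters another way than CXCL12. CXCL10 was at 612 CPM in the SELE and ICAM1 sub-cluster and at 34.6 CPM in the FBLN2 sub-cluster, and CXCL8 at 509 CPM in the MMRN1 and CCL21 sub-cluster and at 28.1 CPM in the FBLN2 one.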
